A study of Mus musculus with 12 samples.

Results

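Krt6a, Krt6b, Krt16 and Krt17, known as the stress keratins, were measured by bulk RNA-seq in the back skin of 12 mice treated or not with imiquimod (IMQ), a Toll-like receptor agonist whose cream produces psoriasis-like lesions in mice. The 4 genes were chosen by name, with no measured value in the rule but with earlier results of these data known. All 4 passed the filter on low counts. They are 4 of the 56923 genes in the deposited count table, of which 18529 were tested, and 4 of 53 keratin genes that were listed. The mice were females of 8 to 10 weeks in 4 groups of 3. WT control mice were littermates of the knockout line and, per the study's methods, received vehicle (Vaseline) on shaved back skin, while the labels give the treatment of all control mice as none. WT IMQ mice received 5% IMQ cream for 6 days. The other 6 mice carry the label LCN2 knockdown and are described in the study's methods as a C57BL/6 Lcn2-/- line, lacking lipocalin 2, an iron-binding protein of neutrophils and inflamed epithelium. They formed a control group and an IMQ group of their own, treated in the same way.

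Keratins are the intermediate filament proteins of epithelial cells, and each filament is built from a type I and a type II chain in pairs. In resting epidermis the basal cells make Krt5 with Krt14 and the suprabasal cells Krt1 with Krt10. After wounding and in psoriasis, keratinocytes switch on the type II keratins Krt6a and Krt6b and the type I keratins Krt16 and Krt17, which are otherwise made in the hair follicle, nail and other appendages. Krt17 in particular is a keratin of the hair follicle outer root sheath, and interleukins of the IL-17, IL-20 and IL-36 groups, EGF receptor ligands and AP-1 factors are among the known inducers of this set.

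The level of Lcn2 itself was read in every library to check the genotype labels. Lcn2 counts were 136, 201 and 86 in the WT control mice and 1010, 2723 and 1572 in the WT IMQ mice. The libraries labelled Lcn2-/- held 320, 173 and 357 Lcn2 counts in the control group and 561, 511 and 830 in the IMQ group. Lcn2 reads were therefore present in every library labelled Lcn2-/-, and these counts go against a loss of the transcript. Whether reads map to a part of the gene that the allele leaves in place was not tested, and the labels are used below only as labels. The extraction text in the labels names retinas while the tissue label is skin, so tissue markers were also read. All 30 keratinocyte markers that are not keratins had reads in every library, and the 9 retina markers summed to between 0.605 and 2.97 CPM (counts scaled to the library size), with 3 to 6 of them at 0 in each library. Library totals ran from 16448226 to 28592110 counts.

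The genes of each type lie next to each other in the genome (GENCODE M21 annotation of GRCm38). Krt6b (ENSMUSG00000023041) and Krt6a (ENSMUSG00000058354) occupy chr15:101676023-101680287 and chr15:101689910-101694307 on the minus strand, between Krt75 and Krt5, each with 9 exons. Krt16 (ENSMUSG00000053797) and Krt17 (ENSMUSG00000035557) occupy chr11:100246091-100248902 and chr11:100256217-100261029, also on the minus strand and each with 8 exons, between Krt14 and Krt42. The coding sequences of Krt6a and Krt6b are identical at 1622 of 1659 aligned bases (97.77%), with a longest identical run of 280 bases, whereas those of Krt16 and Krt17 are identical at 78.87% of aligned bases. How far the counts can tell these paralogs apart depends on places where they differ, and the 60 coding bases with the most differences, bases 817 to 876 of each coding sequence on chromosome 15, are shown with the 10 differing bases in capitals.
Krt6a: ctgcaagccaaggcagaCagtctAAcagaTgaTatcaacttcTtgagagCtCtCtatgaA
Krt6b: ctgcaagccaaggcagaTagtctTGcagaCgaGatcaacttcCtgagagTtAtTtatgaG
Of all 150-base windows of the Krt6a transcript, 18.74% occur letter for letter in another transcript of the same strand (Krt6b or Gm5478), and 18.84% of those of Krt6b occur in Krt6a. For Krt16 the share was 18.36%, all with the pseudogene Gm11597 next to it, and for Krt17 it was 0.0%. A single read of 150 bases from one of these windows cannot be placed in 1 gene, and the treatment of such reads by the counting step is not given in the sources used here. A further 11.51% of the Krt6a windows occur on the opposite strand in Gm49428, an antisense gene that lies within Krt6a, and the strand setting of the counting is not given either.

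Krt6a, Krt6b and Krt16 were low in WT control skin and among the most abundant mRNAs of WT IMQ skin, while Krt17 was already high in control skin and differed far less. The 4 genes took between 0.0501% and 0.1326% of all counts in the 6 control libraries of both labels, and between 0.463% and 1.777% in the 6 IMQ libraries. Bulk skin was sequenced, so more cells of a type and more RNA per cell cannot be told apart in any of these values.

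**Figure D1:**
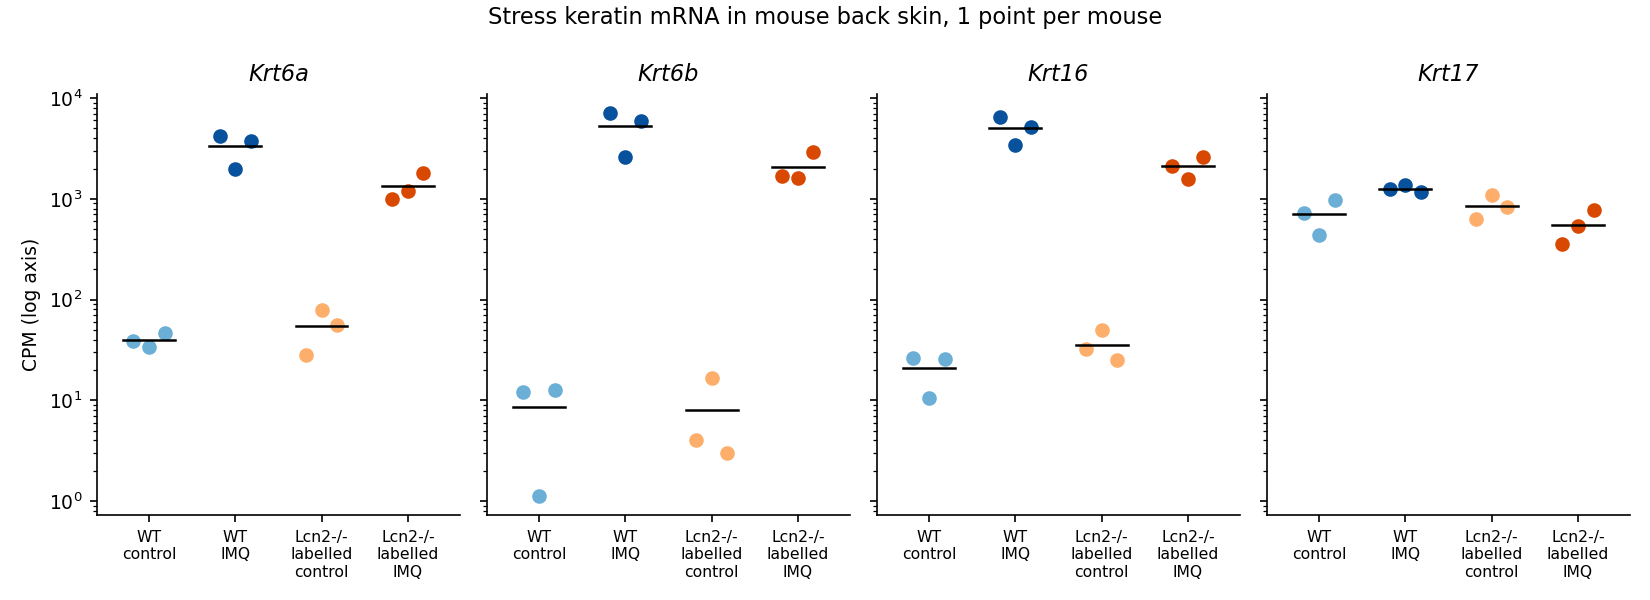
CPM of Krt6a, Krt6b, Krt16 and Krt17 on a log axis in each of the 12 mice (points), with the mean of the 3 mice of a group as a bar. For Krt6a, Krt6b and Krt16 every IMQ mouse lies above every control mouse of either label, and for Krt17 all mice lie between 359.6 and 1358 CPM.

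Krt6a stood at 38.4, 34.0 and 46.4 CPM in the WT control mice and at 4208, 1961 and 3786 CPM in the WT IMQ mice. The lowest IMQ mouse was far above the highest control mouse. Krt6a was 83.8-fold higher in the WT IMQ mice (95% interval 41.2 to 170.5, log2 difference 6.39 with SE 0.47), with an adjusted p of 4.6e-06 in edgeR's quasi-likelihood test. Its paralog Krt6b stood at 12.01, 1.12 and 12.5 CPM in the WT control mice, where mouse 2 had 26 reads against 260 and 236 in the others. In the WT IMQ mice Krt6b stood at 7171, 2600.5 and 5983 CPM. Krt6b was 616-fold higher (95% interval 119.6 to 3171, log2 difference 9.27 with SE 1.08), and edgeR's adjusted p was 0.000127. Without WT control mouse 2 the log2 difference was 8.74. The wide interval goes with the spread of the control mice, whose coefficient of variation was 75.4% for Krt6b and 15.8% for Krt6a.

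Krt16, the type I partner of the Krt6 chains, stood at 26.4, 10.5 and 25.5 CPM in the WT control mice and at 6535, 3401 and 5164 CPM in the WT IMQ mice, again with no overlap. It was 242-fold higher (95% interval 113 to 516, log2 difference 7.92 with SE 0.50), with an adjusted p of 2.06e-06 in the edgeR fit. Krt17 stood at 719.6, 442 and 975 CPM in the WT control mice and at 1254, 1358 and 1161 CPM in the WT IMQ mice. Every WT IMQ mouse was above every WT control mouse for Krt17, with means of 1258 CPM (SD 98.5) and 712 CPM (SD 266). Its ratio was 1.77 (95% interval 1.09 to 2.86), with an unadjusted p of 0.0243 and an adjusted p of 0.0738 in the edgeR fit, so that Krt17 was not called. Without WT control mouse 3, the highest of its group, the log2 difference of Krt17 was 1.11 instead of 0.82 and edgeR's adjusted p was 0.0348. In all, 3 of 4 stress keratins were called higher at an adjusted p under 0.05, against 14.2% of all genes tested, and 4 of 4 did not overlap upward, against 20.1% of all genes tested. Among those genes, Krt6b, Krt16 and Krt6a took ranks 18, 40 and 81 by log2 difference and Krt17 rank 2310.

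Other keratinocyte genes were also higher in WT IMQ skin, and these values stand beside the stress keratin values. Of the same 30 keratinocyte markers, 20 were called higher and 0 lower, with a median log2 difference of 0.92 against -0.02 for all genes tested. Their summed level ran from 4990.4 to 8031 CPM in the WT control mice and from 13524 to 17343 CPM in the WT IMQ mice, and none of the 30 was at 0 in any library. With libraries scaled to these 30 markers instead of to all genes, the median of all genes fell by 1.04 on the log2 scale, and the log2 differences of Krt6a, Krt6b and Krt16 were 5.37, 8.40 and 6.98, all still called. On that scale Krt17 turned to -0.095, with an adjusted p of 0.777 in edgeR. The direction of Krt17 thus depended on the scale, and neither value passed the test.

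**Figure D2:**
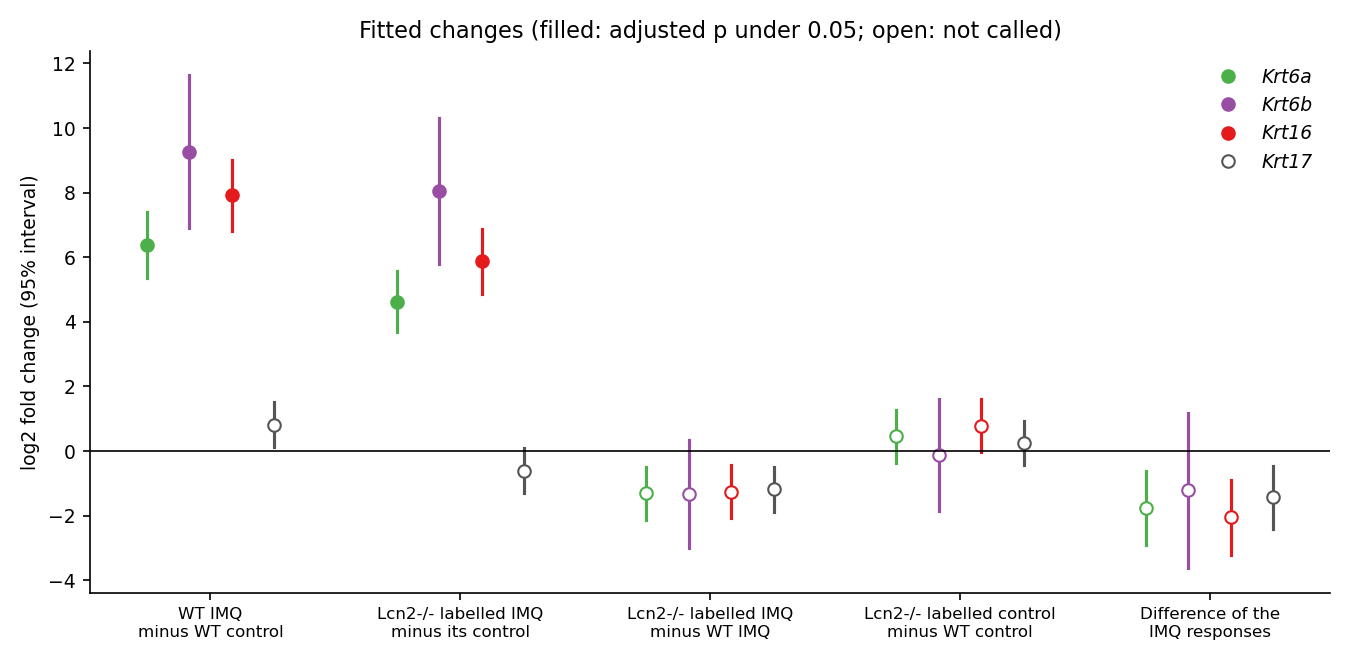
Log2 fold changes of the 4 genes in 5 comparisons from the edgeR fit of all 12 mice, with 95% intervals; filled points have an adjusted p under 0.05. Krt6a, Krt6b and Krt16 are filled in both IMQ against control comparisons and in no other, and Krt17 is open in all 5.

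In the mice labelled Lcn2-/-, Krt6a, Krt6b and Krt16 rose with IMQ and Krt17 was not called. Krt6a stood at 28.3, 78.8 and 56.3 CPM in the control mice of this label and at 1003, 1205 and 1816 CPM in its IMQ mice. Krt6b stood at 4.01, 16.8 and 2.99 CPM in these control mice and at 1694, 1609 and 2910.3 CPM in the IMQ mice. Krt16 stood at 32.1, 49.9 and 25.4 CPM and at 2110.5, 1564 and 2612 CPM. For these 3 genes every IMQ mouse was above every control mouse of this label, as was the case for 23.1% of all genes tested. The rises were 24.7-fold for Krt6a (95% interval 12.8 to 47.4), 264-fold for Krt6b (55.5 to 1259.7) and 58.6-fold for Krt16 (29.4 to 117), with adjusted p of 5.12e-05, 0.00042 and 1.96e-05 in the edgeR fit. Without control mouse 2 of this label, the highest of its group for Krt6b, the log2 rise of Krt6b was 9.20 instead of 8.05. Krt17 stood at 630.3, 1084 and 821 CPM in the control mice labelled Lcn2-/- and at 359.6, 532 and 768 CPM in the IMQ mice of that label. These groups overlapped, and the log2 difference of -0.61 (SE 0.32) had an adjusted p of 0.176 in edgeR. Thus 3 of 4 genes were called higher, against 14.1% of all genes tested, and 0 of 4 lower, against 11.2%.

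Without IMQ no difference between the labels passed the test. The log2 differences of control mice labelled Lcn2-/- from WT control mice were 0.46 (SE 0.37) for Krt6a, -0.12 (SE 0.79) for Krt6b, 0.78 (SE 0.38) for Krt16 and 0.25 (SE 0.32) for Krt17, and for all 4 the mice of the labels overlapped. None of the 4 was called, against 0.0054% of all genes tested called higher (1 gene). The smallest unadjusted p in edgeR was 0.0614, for Krt16, and its 95% interval reached from -0.04 to 1.61 on the log2 scale. The sign of the Krt6b difference was not stable: it was 0.13 with the replicate number as a block, and leaving out each mouse gave -1.28 to 0.27, with values above zero without WT control mouse 1 or 3 or without control mouse 1 or 3 labelled Lcn2-/-.

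After IMQ, each of the 4 genes had a lower mean in the mice labelled Lcn2-/- than in the WT mice, and the size was close to equal across the 4. The ratios of the IMQ mice labelled Lcn2-/- to the WT IMQ mice were 0.404 for Krt6a (95% interval 0.229 to 0.715), 0.394 for Krt6b (0.124 to 1.26), 0.416 for Krt16 (0.236 to 0.734) and 0.440 for Krt17 (0.271 to 0.714). For Krt6a, Krt16 and Krt17 every IMQ mouse labelled Lcn2-/- was below every WT IMQ mouse, and for Krt6b mouse 3 labelled Lcn2-/- (2910.3 CPM) lay above WT IMQ mouse 2 (2600.5 CPM). Over all genes tested, 17.3% did not overlap downward. In the edgeR fit the adjusted p was 0.0652, 0.278, 0.0690 and 0.0542 in the same order, so 0 of 4 were called lower, against 2.6% of all genes tested. At an unadjusted p under 0.05 and a fold above 2, the looser rule, 3 of 4 passed, against 3.35% of all genes tested; the unadjusted edgeR p was 0.00485 for Krt6a, 0.105 for Krt6b, 0.00576 for Krt16 and 0.00317 for Krt17.

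Whether a gene was called depended on the tool, the filter and 1 library. In DESeq2 on all 12 mice the adjusted p of Krt6a, Krt16 and Krt17 was 0.0075, 0.00894 and 0.00565, and in edgeR on the 6 IMQ mice alone it was 0.0414, 0.0328 and 0.0303. With a filter of at least 10 counts in every library Krt17 had an adjusted p of 0.0451 in edgeR. WT IMQ mouse 2 was the lowest of its group for Krt6a, Krt6b and Krt16 and the highest for Krt17 and for Lcn2 (183 CPM, against 61.2 and 76.1 CPM). Without that mouse the log2 difference of Krt6a was -1.57 instead of -1.31 and that of Krt16 -1.48 instead of -1.26, and edgeR's adjusted p was 0.0216 and 0.0334. Keratinocyte markers moved the same way. Of the 30, 5 were called lower (against 2.6% of all genes tested) and 0 higher after IMQ in the mice labelled Lcn2-/- (Dsg3, Dsc3, Trp63 and Itgb4 with the largest differences), the median log2 difference was -0.70, and their summed level ran from 8244 to 10595 CPM against 13524 to 17343 CPM in the WT IMQ mice. Fibroblast markers moved the other way, with 6 of 15 called higher (against 2.19% of all genes tested) and a summed level of 23207 to 24528 CPM against 12016 to 12801 CPM. The edgeR calls between the IMQ groups, 405 genes higher and 481 lower in all, changed with single mice left out: with WT IMQ mouse 1, WT IMQ mouse 3 or IMQ mouse 3 labelled Lcn2-/- left out 0 genes were called in either direction, without mouse 2 of that label 1 higher and 0 lower, and without its mouse 1 there were 1 and 3, whereas leaving out WT IMQ mouse 2 gave 1288 and 1438. With libraries scaled to the keratinocyte markers, which moved the median of all genes by 0.63 on the log2 scale, the log2 differences of Krt6a, Krt6b, Krt16 and Krt17 were -0.62, -0.66, -0.61 and -0.53, with adjusted p of 0.142, 0.431, 0.149 and 0.169 in edgeR, so 0 of 4 were called on that scale too. In that fit 23 of the 18529 genes tested were called lower and 1893 higher. The part of the marker difference in the stress keratin difference was not tested.

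The response to IMQ was also compared between the labels, and the fitted difference was below zero for all 4. It was -1.76 for Krt6a (SE 0.53), -1.22 for Krt6b (SE 1.10), -2.05 for Krt16 (SE 0.53) and -1.43 for Krt17 (SE 0.45) on the log2 scale. In edgeR the adjusted p was 0.0888, 0.517, 0.0651 and 0.0958, so 0 of 4 were called, against 0.783% of all genes tested called lower. With an unadjusted p under 0.05 and a fold above 2, 3 of 4 passed, against 4.91% of all genes tested. In DESeq2, fitted over the 12 mice, the adjusted p was 0.0136 for Krt6a, 0.00274 for Krt16 and 0.0235 for Krt17. Single mice decided the edgeR call here too. Without WT IMQ mouse 2 the adjusted p was 0.0327 for Krt6a and 0.0296 for Krt16. Without control mouse 1 labelled Lcn2-/- it was 0.0389 for Krt6a, and without WT control mouse 3 it was 0.0464 for Krt17. Of 12 edgeR fits that each left out 1 mouse, 2 called Krt6a, 1 called Krt16 and 1 called Krt17. The adjusted p in these fits reached 0.222, 0.177 and 0.213 in the same order. The Krt6b value rested on control mouse 2 labelled Lcn2-/-, without which it was -0.063. With libraries scaled to the keratinocyte markers the differences of Krt6a, Krt6b, Krt16 and Krt17 were -0.78, -0.38, -1.24 and -0.59. On that scale 0 of 4 were called, and 1 of the 18529 genes tested was called lower.

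Among themselves, the 4 genes changed places with IMQ. Levels of different genes are compared here as CPM per kb of exon. In WT control skin the order was Krt17 (459 CPM per kb, SD 172, n = 3), Krt6a (16.4, SD 2.58), Krt16 (13.3, SD 5.71) and Krt6b (3.83, SD 2.89), and the values of Krt6a and Krt16 overlapped. In WT IMQ skin the order of the means was Krt16 (3216 CPM per kb, SD 1004), Krt6b (2349.6, SD 1061), Krt6a (1372, SD 494) and Krt17 (811, SD 63.5). Over the 3 mice the ranges of neighbouring genes overlapped at each step. Within each WT IMQ mouse, though, Krt16 was above Krt6b and Krt6b above Krt6a. Krt17 was the lowest except in mouse 2, where it was above Krt6a (876 and 811 CPM per kb). Krt17 made up 93.1% of the summed level of the 4 genes in WT control mice (SD 0.731, n = 3) and 11.5% in WT IMQ mice (SD 5.13). Krt16 went from 2.67% to 41.7%, Krt6b from 0.691% to 29.2% and Krt6a from 3.54% to 17.5%.

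**Figure D3:**
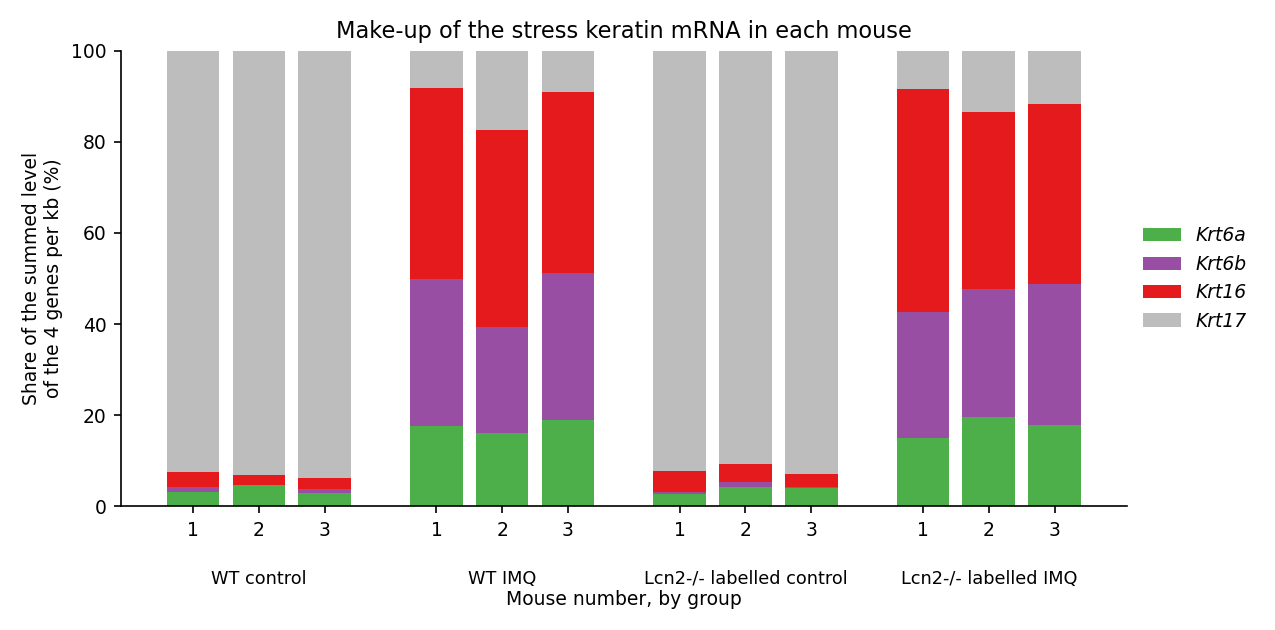
Share of Krt6a, Krt6b, Krt16 and Krt17 in their summed level (CPM per kb of exon, stacked to 100%) in each mouse. Krt17 takes 90.7% to 93.9% in the 6 control mice and 8.14% to 17.4% in the 6 IMQ mice, and the IMQ mice of both labels have like shares.

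After IMQ the shares of the 4 genes lay close together in both labels, as a description with no test. In the IMQ mice labelled Lcn2-/- Krt6a, Krt6b, Krt16 and Krt17 made up 17.4%, 28.8%, 42.5% and 11.2% of their sum (SD 2.23, 1.79, 5.60 and 2.54, n = 3). The Krt6b to Krt6a ratio per kb was 1.84, 1.44 and 1.71 in the WT IMQ mice and 1.83, 1.44 and 1.73 in the IMQ mice labelled Lcn2-/-. It was below 1 in every control mouse, at 0.338, 0.0355 and 0.293 in the WT control mice and 0.153, 0.231 and 0.0575 in the control mice labelled Lcn2-/-. Krt6b therefore exceeded Krt6a in each of the 6 IMQ mice and in none of the 6 control mice, within the limit that reads of the shared windows could be split between them. Summed into 1 gene, Krt6a and Krt6b were higher by 7.48 on the log2 scale in WT IMQ mice (adjusted p = 4.72e-06 in edgeR).

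Type II and type I chains pair in the filament, so the ratio of Krt6a plus Krt6b to Krt16 plus Krt17 was taken per kb in each mouse. It was 0.0442, 0.0499 and 0.0385 in the WT control mice and 0.993, 0.648 and 1.05 in the WT IMQ mice. The WT control mice thus had an excess of type I stress keratin, nearly all of it Krt17, and the WT IMQ mice were near equality. The log2 ratio was higher by 4.32 in the WT IMQ mice, with p = 0.1 in the two-sided exact permutation test of 3 mice against 3, the smallest p that this design allows. In the IMQ mice labelled Lcn2-/- the ratio was 0.742, 0.908 and 0.949, a log2 difference of -0.03 from the WT IMQ mice (p = 0.9, exact permutation test). Adjusted over the 4 tests of ratios, these exact permutation p became 0.2 and 0.9.

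Relative to Krt14, the type I keratin of basal cells and itself higher in WT IMQ skin by 3.30 on the log2 scale (adjusted p = 6.4e-06 in edgeR), the 4 genes parted. The mean log2 ratio of Krt6a to Krt14 was -5.61 (SD 0.17, n = 3) in the WT control mice and -2.59 (SD 0.20) in the WT IMQ mice. For Krt6b it was -8.32 (SD 1.78) and -1.86 (SD 0.38), and for Krt16 -6.01 (SD 0.61) and -1.33 (SD 0.11). The linear ratio of Krt17 to Krt14 lay the other way, at 0.655, 0.435 and 0.588 in the WT control mice and 0.0837, 0.153 and 0.0865 in the WT IMQ mice. In the mice labelled Lcn2-/- the Krt17 to Krt14 ratio was 0.570, 0.917 and 0.678 in the control group and 0.0473, 0.1001 and 0.112 in the IMQ group. The sum of the 4 genes over Krt14 was higher in the WT IMQ mice than in the WT control mice by 0.69 on the log2 scale (p = 0.1, exact permutation test, the smallest possible) and differed by -0.37 between the IMQ groups (p = 0.2, exact permutation test). Krt14 shares 86.49% of aligned coding bases with Krt16 and 84.1% with Krt17.

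**Figure D4:**
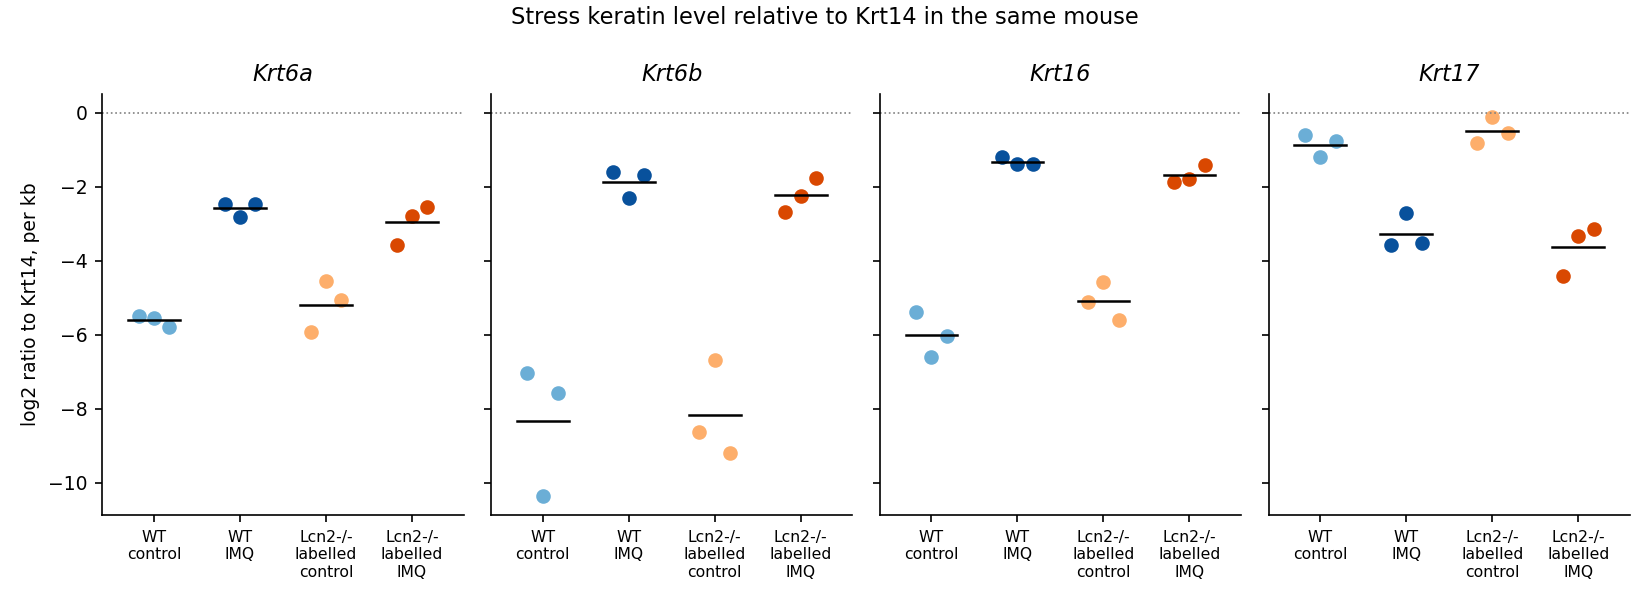
Log2 ratio of each gene to Krt14, per kb of exon, in each of the 12 mice (points), with the mean of each group of 3 as a bar. For Krt6a, Krt6b and Krt16 the 6 IMQ mice all lie above the 6 control mice, and for Krt17 they all lie below.

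Keratins of the hair follicle, where Krt17 is also made, differed widely among the control mice, and their values stand beside those of Krt17. Krt71, an inner root sheath keratin, stood at 922, 0.172 and 445 CPM in the WT control mice and at 39.0, 2879 and 1097 CPM in the control mice labelled Lcn2-/-. Within each control group the mouse with the least Krt71 (WT mouse 2 and mouse 1 labelled Lcn2-/-) also had the least Krt17. The same mice also had the lowest summed level of the 30 keratinocyte markers in their groups (4990 and 5596 CPM). The match is therefore not particular to Krt71, which was named after its values were seen. In the IMQ mice Krt71 was at most 18.2 CPM. The 10 companion layer and inner root sheath keratins summed to 910.5 to 3747 CPM in the WT control mice, 372 to 1119 CPM in the WT IMQ mice, 1272 to 9172 CPM in the control mice labelled Lcn2-/- and 317 to 520 CPM in their IMQ mice, with up to 6 of them at 0 in a library. Of these 10, 2 were called lower in WT IMQ mice (against 14.3% of all genes tested) and 10 with IMQ among the mice labelled Lcn2-/- (against 11.2%). Krt75, a companion layer keratin next to Krt6b in the genome, had log2 differences of -2.04 and -3.53 in the same comparisons, of which the second was called (adjusted p = 0.0364 in edgeR). The part of the hair follicle keratins in the Krt17 values was not tested.

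**Figure D5:**
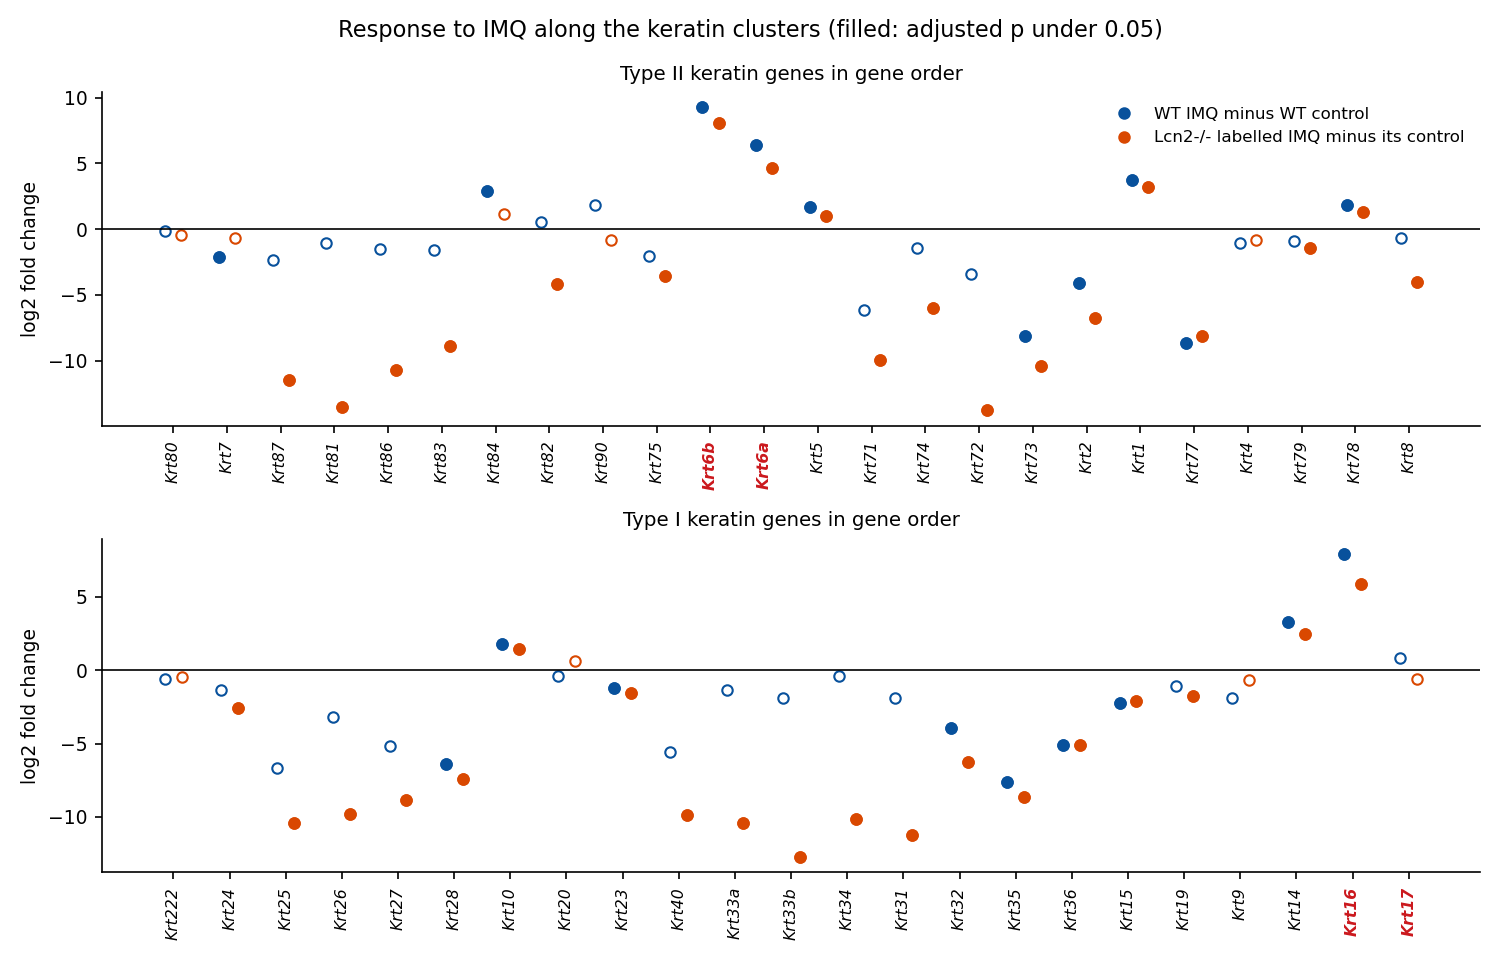
Log2 fold change with IMQ in WT mice (blue) and in mice labelled Lcn2-/- (orange) for the tested keratin genes in the order in which they lie on chromosome 15 (24 type II genes, upper panel) and chromosome 11 (23 type I genes, lower panel), equally spaced; filled points have an adjusted p under 0.05 and the stress keratins are in red. Krt6b and Krt6a are the highest points of the upper panel and Krt16 of the lower.

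Along the keratin clusters, of 24 tested type II keratins 6 were called higher and 4 lower in WT IMQ mice, and of 23 tested type I keratins 3 were called higher and 6 lower, where 14.2% of all genes tested were called higher and 14.3% lower. Krt6b, Krt6a and Krt5 lie side by side and were all called higher, with log2 differences of 9.27, 6.39 and 1.66, while the flanking Krt75 and Krt71 had -2.04 and -6.16 and were not called. On chromosome 11 the neighbours Krt14 and Krt16 had 3.30 and 7.92 and were called, and Krt17, the next keratin tested, had 0.82. The other keratins called higher in WT IMQ mice were Krt1 (3.77), Krt10 (1.77), Krt78 (1.82) and Krt84 (2.87). Genes that overlap or copy the stress keratins were higher in WT IMQ mice as well. Gm49428, antisense within Krt6a, had 2, 0 and 0 counts in the WT control mice, 391, 42 and 352 in the WT IMQ mice and 10, 11 and 18 in the IMQ mice labelled Lcn2-/-. The pseudogene Gm11597 between Krt14 and Krt16 had 0, 0 and 0 counts in the WT control mice and 133, 53 and 87 in the WT IMQ mice, and Gm5478, which shares windows with Krt6a, had 0, 0 and 3 and then 207, 172 and 255. These counts are small beside 29167 to 78158 counts on Krt6a and 50599 to 107871 on Krt16 in the WT IMQ mice, and reads of one gene counted on the other cannot be told apart from their own transcription.

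The known inducers of stress keratins were described from lists that were drawn up with earlier results of these data known. Of 17 cytokines in the list, 15 were tested, and 13 were called higher and 0 lower in WT IMQ mice. As for each list below, 14.2% of all genes tested were called higher and 14.3% lower in that comparison. Il24 had 0, 0 and 0 counts in the WT control mice and 208, 258 and 267 in the WT IMQ mice, and Il19, of the same IL-20 group, had 1, 3 and 3 and then 774, 1068 and 906. Il22 had 0, 0 and 0 and then 16, 14 and 14 counts, and Il17c, made by epithelial cells, 1, 1 and 0 and then 33, 28 and 44. After IMQ 4 of the 15 were called lower in the mice labelled Lcn2-/- than in the WT mice, against 2.6% of all genes tested, with Il24 at 36, 33 and 70 counts, Il19 at 164, 202 and 276 and Il17c at 4, 2 and 4. The fourth was Il1a, with a log2 difference of -1.17 (adjusted p = 0.0237 in edgeR). None of these 4 calls was made without WT IMQ mouse 1, WT IMQ mouse 3 or IMQ mouse 3 labelled Lcn2-/-, since each of these fits called 0 genes in all. They were also lost without IMQ mouse 2 of that label, where 0 genes were called lower. Without its mouse 1, 3 genes in all were called lower. In IMQ against control mice labelled Lcn2-/-, 10 of the 15 were called higher, against 14.1% of all genes tested. The median log2 difference of the list was 3.70 in WT IMQ mice, 2.21 with IMQ in the mice labelled Lcn2-/- and -0.71 between the IMQ groups.

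Of 10 EGF family ligands and receptors, 5 were called higher and 1 lower in WT IMQ mice, against 14.2% and 14.3% of all genes tested. The ligands Epgn, Hbegf, Areg and Ereg were higher by 4.69, 4.06, 3.71 and 2.76 on the log2 scale. These 4 ligands were also the ones called lower in the IMQ mice labelled Lcn2-/- than in the WT IMQ mice, with log2 differences of -1.44, -0.96, -1.75 and -1.25, against 2.6% of all genes tested. These calls and the others between the IMQ groups in the following lists were lost without any 1 of the same 3 mice, where 0 genes in all were called. They were also lost without IMQ mouse 2 labelled Lcn2-/-, where 0 genes were called lower. Of 17 cytokine receptors, 8 were called higher and 1 lower in WT IMQ mice, among them Osmr, the oncostatin M receptor (1.64), Il22ra1 (1.47), Tnfrsf12a, which encodes Fn14 (1.66), and Il20ra as the one called lower (-2.85). Osmr and Il17rc were the 2 called lower between the IMQ groups (-0.91 and -0.48). Of 20 transcription factors linked to these genes, 9 were called higher and 2 lower in WT IMQ mice: the AP-1 member Fosl1 had 4.66 and Nfkbiz, a mediator of IL-17 and IL-36 signals, 2.36, while Gli1 and Gli2, of the Hedgehog pathway of the hair follicle, had -2.06 and -1.34. Between the IMQ groups Trp63 (-0.85) and Myc (-0.51) were called lower. Of 13 tested keratin-binding and filament-anchoring proteins, such as plakins and plakophilins, 9 were called higher and 1 lower in WT IMQ mice, with Pkp1 at 1.85 and Evpl at 1.68, and 0 of 13 were called between the IMQ groups. Of 19 tested genes of activated epidermis, 17 were called higher and 0 lower in WT IMQ mice, with a median log2 difference of 6.49, and 2 were called lower between the IMQ groups (Tgm1 at -0.97 and Cd44 at -0.78), with a median of -0.42.

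The genes whose pattern over the 12 libraries was most like each stress keratin were found from the root mean square difference of log2 CPM, each gene centred on its own mean, among 15982 genes with a mean of at least 1 CPM. Nearest to Krt16 were Stfa2, a stefin (0.357), and Sprr1b, a cornified envelope precursor (0.380), followed by BC100530, Lce3e and Lce3d. Nearest to Krt6a were Gm11597 (0.457), Tcf23 (0.462), Sh2d5 (0.488), Serpinb12 (0.508) and Gm15845 (0.516). Krt6b had no gene as near, with Pla2g4d, an epidermal phospholipase, at 1.00 and BC117090, Gm5416, Stfa1 and Lce3b behind it. Krt17 was nearest to Fam167a (0.224), 1500015A07Rik (0.25), Odc1, the ornithine decarboxylase of polyamine synthesis (0.270), Baiap2l1 (0.271) and Hook1 (0.286). Between stress keratins the difference was 0.836 for Krt6a and Krt16, 1.25 for Krt6b and Krt16 and 1.96 for Krt6a and Krt6b, but 2.72 for Krt17 and Krt6a, 3.43 for Krt17 and Krt16 and 4.54 for Krt17 and Krt6b. Krt17 thus had the least likeness to the other 3 of the set, as a description with no test. The measure is not scaled for the size of a gene's changes and so grows with them. In WT IMQ mice Krt6b was 616-fold higher and Krt17 1.77-fold, so these distances in part restate the fold changes.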

How the data were processed

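Bulk RNA-seq of back skin from 12 mice, 3 in each of 4 groups, was read from 1 table of raw counts that the authors deposited, with 56923 Ensembl genes and no normalization, from paired reads of 150 bases. The submitters' processing notes name HISAT and the build mm8. The counter, its annotation and its strand setting are not given in the sources used here. Groups came from the labels, and mice of a group are separate animals. For symbols and positions the GENCODE M21 set (GRCm38) was used, in which 52073 identifiers (91.5%) had a match, and unmatched ones held 0.567% of the counts. Exon lengths are from the same set.

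The counts were normalized by TMM and fitted with edgeR 4.0.16 in R 4.3.3 (quasi-likelihood, robust, 4 group means over all 12 mice, common biological coefficient of variation 0.253). After filterByExpr (count 10, total 15) 18529 genes were left and tested with Benjamini-Hochberg adjustment over all of them and called at an adjusted p under 0.05. CPM use the TMM library sizes, and 3 counts correspond to 0.105 to 0.182 CPM, which covers counting error only. Intervals are at 95%. Ratios of genes within a mouse were tested with two-sided exact permutation tests in scipy 1.17.1. Transcripts were compared with Biopython 1.88 (Python 3.11.15), and plots used matplotlib 3.10.9. Alternatives were RLE size factors, DESeq2 1.42.0 on all mice or on those compared, edgeR on those compared, no filter, at least 10 counts in every library, the replicate block, scaling to 30 keratinocyte markers, ratios without gene length and each mouse left out. Summing Krt6a and Krt6b was added after seeing the data. No pair of libraries in a group was a duplicate. The scripts were tested on simulated data.

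The 4 genes and all gene lists were chosen with earlier results of these data known. Named by rule were the 4 genes, Lcn2, Krt5, Krt14, Krt1 and Krt10, genes that overlap the 4 or flank them, at most 4 called genes with the largest log2 difference per list and comparison, and for each of the 4 the 5 genes nearest in pattern. Krt71, Gm5478 and the keratins called higher along the clusters were named after their values were seen. Protein and promoter sequences of the 4 genes were not analysed here.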

Additional observations from a re-analysis of the deposited data

Results flagged for a closer look

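The IMQ response differed between the labels for 12 genes of the inducer, receptor, EGF family, transcription factor and activated epidermis lists or nearest in pattern to a stress keratin, with an adjusted p under 0.05 for the interaction in the edgeR fit over all genes tested. In each case the log2 response was lower in the mice labelled Lcn2-/-, and none of the 4 stress keratins was among them. Of the tested genes, 4 of 15 cytokines, 1 of 17 cytokine receptors and 2 of 10 EGF family genes were among the 12. So were 1 of 20 transcription factors and 3 of 19 genes of activated epidermis. The other was Fam167a, from the 5 genes nearest in pattern to each stress keratin. Over all genes tested 0.783% were called with a lower response (145 genes) and 1.37% with a higher one (253 genes). These calls depended on single mice and on the scale. The lower calls over all genes fell to 0 without WT IMQ mouse 1 or WT IMQ mouse 3. They fell to 1 without IMQ mouse 2 labelled Lcn2-/- and to 3 with the replicate block. Leaving out each of the other mice gave 6 to 912. With libraries scaled to the keratinocyte markers, 1 gene was called with a lower response and 131 with a higher one. The median difference of all genes was 0.84 on that scale. The differences on the log2 scale were -5.44 for Il17c (5.75 in WT mice, 0.31 in mice labelled Lcn2-/-), -3.54 for Il17f (4.53 and 0.99), -1.84 for Il1f6, the annotation's symbol of Il36a (5.06 and 3.22), and -1.63 for Il1a (3.33 and 1.70). For the EGF family ligands they were -2.36 for Epgn (4.69 and 2.32) and -2.27 for Areg (3.71 and 1.44). Osmr had -1.27 (1.64 and 0.37) and Nfkbiz -1.88 (2.36 and 0.49). Among genes of activated epidermis, Serpinb3a had -4.61 (13.32 and 8.71), Tgm1 -1.57 (3.04 and 1.48) and Cd44 -1.22 (1.94 and 0.72). Fam167a, the gene nearest to Krt17 in pattern, had -1.81 (1.06 and -0.75). It was picked for likeness to Krt17 over the same 12 libraries, so its value is not independent of that of Krt17. Il17c had at most 8 counts in every control mouse, so its fitted values carry little depth. Serpinb3a too was near the floor in control mice, with 1, 1 and 1 counts in the WT control mice, 19, 17 and 13 in the control mice labelled Lcn2-/-, 7961, 9227 and 11048 in the WT IMQ mice and 6867, 2500 and 5141 in the IMQ mice of that label. Il17f also had few counts, with 2 to 4 in the WT control mice and 25 to 29 in the control mice labelled Lcn2-/-.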

How the results depend on the processing

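The rises of Krt6a, Krt6b and Krt16 with IMQ kept their direction and their call in both labels under all alternatives run. For Krt17 in WT IMQ against WT control mice, DESeq2 on all mice and on the compared mice gave calls at 0.83 and 0.82, scaling to the keratinocyte markers turned the value to -0.095, and leaving out each mouse gave 0.57 to 1.11. Between the IMQ groups, DESeq2 on all mice called Krt6a (-1.30), Krt16 (-1.26) and Krt17 (-1.17), DESeq2 on the IMQ mice called Krt6a (-1.29), Krt6b (-1.33), Krt16 (-1.25) and Krt17 (-1.17), edgeR on the IMQ mice called Krt6a (-1.29), Krt16 (-1.25) and Krt17 (-1.17), and the filter of at least 10 counts in every library called Krt17 (-1.19). Leaving out each mouse gave -1.58 to -1.10 for Krt6a, -1.67 to -1.05 for Krt6b, -1.48 to -1.03 for Krt16 and -1.49 to -0.95 for Krt17. For the difference of the IMQ responses DESeq2 called Krt6a (-1.77), Krt16 (-2.05) and Krt17 (-1.43), leaving out each mouse gave -2.07 to -1.40, -2.26 to -1.72 and -1.74 to -1.18 for these and -1.61 to -0.063 for Krt6b, and scaling to the keratinocyte markers gave -0.78, -1.24 and -0.59 for these and -0.38 for Krt6b, with 0 called. The Krt6b difference between control groups changed sign with the replicate block (0.13) and with mice left out (-1.28 to 0.27), and the sum of Krt6a and Krt6b differed by 0.37. The type II to type I ratio between the IMQ groups ranged from -0.24 to 0.10 with mice left out. The cause was not tested for any of these.

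The numbers 1 to 3 recur in every group, but each mouse is its own animal. The deviations of mice that share a number had a mean correlation of -0.051 and one over 0.1 in 1 of 18 pairs. The lowest were between the control groups of both labels, at -0.555 for mouse 2 and -0.385 for mouse 1. With the replicate block, as without it, 0 of 4 genes were called between the IMQ groups, with -1.35 for Krt6a, -1.32 for Krt6b, and -1.25 for Krt16 and for Krt17, while over all genes 77 were called higher and 59 lower in place of 405 and 481. DESeq2 on all mice called 1230 and 1272. Scaled to the keratinocyte markers, 590 genes were called higher and 12048 lower in WT IMQ mice in place of 2633 and 2654, and 1893 and 23 between the IMQ groups. With 3 mice a group and a spread of 75.4% among WT control mice, Krt6b was the least precise of the 4.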

Other observations

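Neutrophil markers were also read, as cells that enter IMQ skin. Of 11 tested, 8 were called higher in WT IMQ mice (against 14.2% of all genes tested) and 11 with IMQ among the mice labelled Lcn2-/- (against 14.1%). Between the IMQ groups 1 was called higher (Camp, against 2.19% of all genes tested) and 0 lower (against 2.6%). The Camp call was lost without WT IMQ mouse 1, WT IMQ mouse 3 or IMQ mouse 3 labelled Lcn2-/-, where 0 genes in all were called. The median log2 difference of the neutrophil markers between the IMQ groups was 0.80, where the 4 stress keratins had a median of -1.28. The summed level of the neutrophil markers ran from 6117 to 10231 CPM in the WT IMQ mice and from 3854 to 10585 CPM in the IMQ mice labelled Lcn2-/-. The markers include S100a8 and S100a9, which are also in the list of activated epidermis genes. These genes had the largest log2 differences of the called markers with IMQ in both labels, so the sum is not a reading of neutrophils alone. Of 14 tested hair shaft keratins, 13 were called lower with IMQ in the mice labelled Lcn2-/-, against 11.2% of all genes tested. In the WT mice 3 of the 14 were called lower, against 14.3% of all genes tested, and 1 (Krt84) higher, while 12 of the 14 had a log2 difference below zero, with a median of -1.71. These keratins had a summed level of 20.6 to 1928 CPM in the control mice labelled Lcn2-/- and 7.82 to 173 CPM in the WT control mice.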
